A study of Mus musculus with 12 samples.

Results

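Class 3 semaphorins are secreted guidance proteins. The 10 genes described here are the ligands Sema3a, Sema3b, Sema3c, Sema3d, Sema3e and Sema3f, the neuropilins Nrp1 and Nrp2 and the plexins Plxna1 and Plxnd1, taken by symbol from the 36875 symbols of the deposited count table. All 10 passed the expression filter, which left 15049 genes. Poly(A) RNA was sequenced from cultures of fibroblast-like synoviocytes, which are the stromal cells of the joint lining. There were 12 libraries, 4 in each of 3 groups. Homeostasis mice drank 5% sucrose water for 3 weeks, and the descriptions call them WT. Inflammation mice (DOX ON) had doxycycline at 1 mg/ml added to 5% sucrose water over the 3 weeks. Resolution mice (DOX OFF) had that course and were then taken off doxycycline. The protocol, which is the same for every library, names mice with arthritis induced by tumour necrosis factor (TNF). The labels do not give a transgene or promoter, the genotype of each group, age, sex, joint, passage or the time after withdrawal. Nor do they say whether 4 libraries stand for 4 mice or 4 cultures, so a p-value here reflects variation between libraries that may be technical. The series asks how activated synoviocytes disturb endothelial cells while inflammation resolves, and class 3 semaphorins are among the secreted proteins that endothelial cells respond to.

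A class 3 semaphorin binds a receptor complex in which a neuropilin holds the ligand and a plexin carries the signal into the cell, where its GTPase-activating domain lowers integrin adhesion and collapses the actin cytoskeleton. Sema3A signals mainly through neuropilin 1 with A-type plexins and Sema3F mainly through neuropilin 2, while Sema3E can bind plexin D1 without a neuropilin. Neuropilins also hold vascular endothelial growth factor (VEGF), so the same receptors serve both ligand families on vessels. In the synovium the family has been studied for its action on vessel growth and on the invasiveness of fibroblasts.

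Total counts per library ran from 18120745 to 34971537, and 0 counts would allow up to 0.0858 to 0.166 CPM (counts scaled by library size), for counting error only. Levels below are CPM with TMM scaling, a trimmed mean of ratios between libraries. The library labelled resolution 2 stood apart, and without it the number of genes called between resolution and inflammation rose from 2431 to 4191. The homeostasis libraries had been seen in earlier results of these data to fall into the pairs 1 with 2 and 3 with 4. Y-linked Ddx3y stood at 23.6 ± 1.82 CPM (SD, n = 4) in homeostasis, at 3 counts in total in inflammation and at 0 counts in resolution. X-linked Xist stood at 10.8 ± 3.28, 110 ± 35.3 and 174 ± 67.0 CPM (SD, n = 4) in the same order. Homeostasis is also the group described as WT and the only one without doxycycline. Differences in sex, in strain or genotype and in the drug itself thus cannot be told apart from inflammation in either comparison against homeostasis. Of 11 fibroblast markers, 5 fell and 2 rose in inflammation, where 18.3% of all genes were called lower and 19.0% higher, and 7 fell and 2 rose in resolution against homeostasis, where these shares were 25.8% and 27.5%. Their summed level ran from 21200 to 22104 CPM in homeostasis, 16203 to 18577 in inflammation and 6604 to 11891 in resolution, with none at 0 counts in any group. Summed levels of 12 macrophage markers, with none at 0 counts, were 131 to 167, 661 to 718 and 63.0 to 71.4 CPM in the same order. Of 11 tested, 10 rose and none fell in inflammation (19.0% and 18.3% of all genes). In resolution 6 fell and none rose against homeostasis (25.8% and 27.5% of all genes). Against inflammation 10 were lower in resolution and none higher (7.64% and 8.52% of all genes). Summed levels of 11 chondrocyte markers were 871 to 1125, 38.1 to 47.3 and 64.7 to 97.7 CPM. Of 8 tested, 5 were lower in both comparisons against homeostasis (18.3% and 25.8% of all genes). In resolution 1 other, Col11a2, was higher (1.70 to 2.99 CPM), as were 27.5% of all genes. Col2a1, the main cartilage collagen, was at 756 to 964 CPM in homeostasis and 2.01 to 3.92 CPM in the other libraries. Matn1 had 2 counts in total in homeostasis, 2 in inflammation and 0 in resolution. For the 10 endothelial markers the summed level ran from 15.04 to 23.0, 8.08 to 16.5 and 11.8 to 17.3 CPM. Cldn5, with 5 counts in total in homeostasis, had 0 in both doxycycline groups, and Emcn, with 57, had 0 in inflammation. Of 7 tested, 1 rose (Vwf) and 3 fell in inflammation (19.0% and 18.3% of all genes). In resolution against homeostasis 2 rose (Vwf and Tek) and 3 fell (27.5% and 25.8% of all genes). Pericyte markers summed to 170 to 222, 147 to 184 and 92.7 to 190 CPM, Schwann cell markers to 32.3 to 36.3, 11.1 to 14.7 and 19.6 to 23.8 CPM, and muscle markers to 13.6 to 15.6, 5.61 to 6.66 and 3.50 to 5.46 CPM. In bulk RNA, fewer cells of a type and less RNA per cell cannot be told apart, and the part of these shifts in the results below was not tested. Mouse Tnf stood at 3.97 ± 2.20, 1.02 ± 0.518 and 0.308 ± 0.143 CPM (SD, n = 4), and since the labels do not say which TNF sequence drives the arthritis, it was not used to check them.

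In inflammation the ligands moved in both directions. Sema3c, Sema3a and Sema3e rose, Sema3f and Sema3b fell, and Sema3d and the 4 receptors did not pass the test against homeostasis. In resolution Sema3c rose further, to 6.73 times its homeostasis level, and Sema3f stayed 5.47-fold lower, while Sema3a and Sema3e lay between homeostasis and inflammation (slightly below homeostasis, without passing, once offsets for transcript GC content and length were added). Plxnd1, the plexin used by Sema3E and Sema3C, fell in resolution. At an adjusted p of 0.05 (edgeR quasi-likelihood test, Benjamini-Hochberg over all genes tested), 5 of the 10 genes were called in inflammation against homeostasis, 3 higher and 2 lower, where 37.2% of all genes were called, 19.0% higher and 18.3% lower. In resolution against homeostasis 8 of 10 were called, 5 higher and 3 lower (2 higher and 3 lower with those offsets), where the shares of all genes were 53.3% in all, 27.5% higher and 25.8% lower. Between resolution and inflammation 4 of 10 were called, 2 in each direction, against 16.2% of all genes, 8.52% higher and 7.64% lower. Beside such shares, 5 or 8 of 10 is no result about the family, and the genes are described by their values instead. Median log2 fold changes of the 10 genes were 0.20, 0.30 and -0.16 in the 3 comparisons, beside -0.01, -0.01 and 0.02 over all genes. The 3 comparisons share libraries and are not independent of each other.

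**Figure D1:**
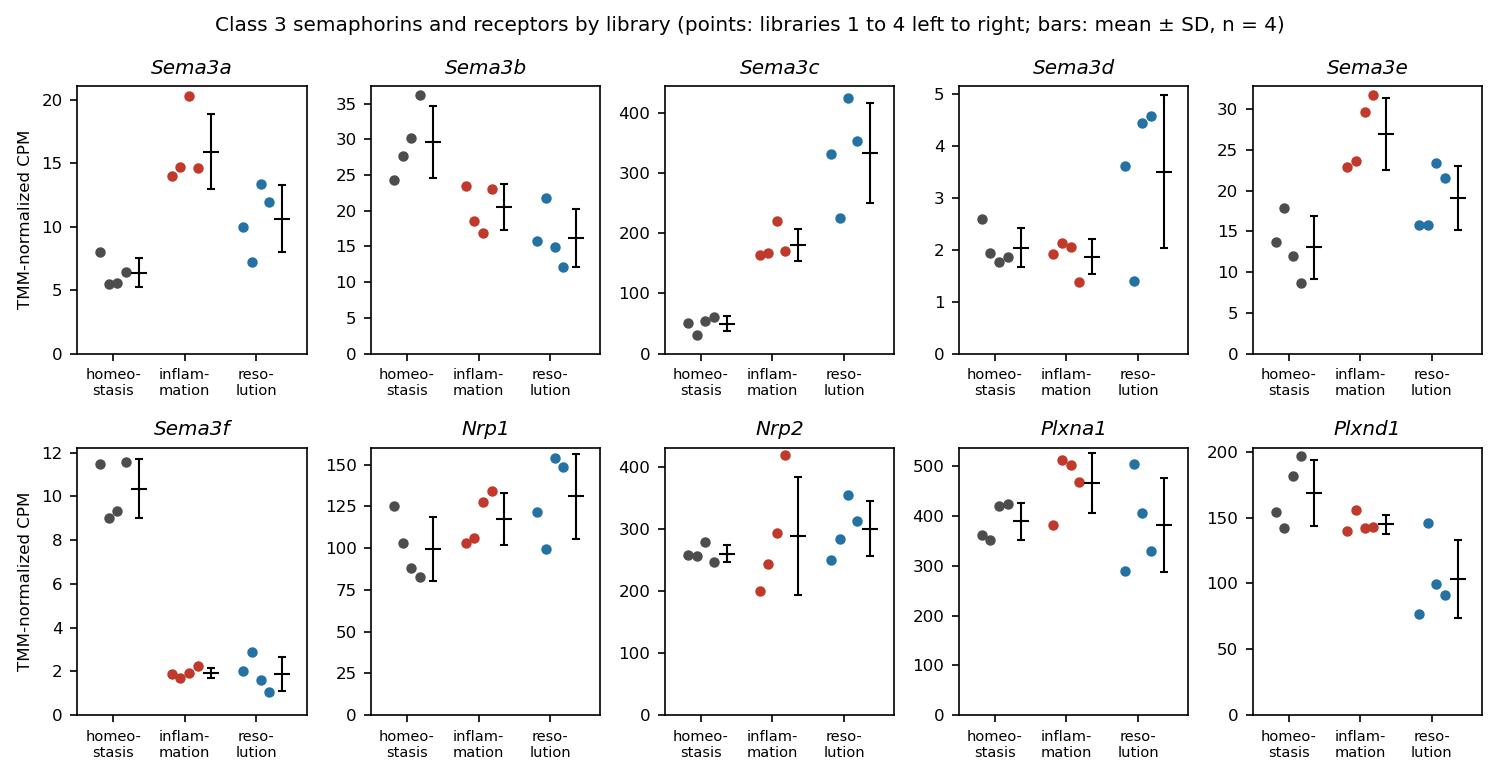
Normalized level (TMM-normalized CPM, y axis from 0) of each of the 10 genes in each of the 12 libraries. Points are libraries 1 to 4 of homeostasis (grey), inflammation (red) and resolution (blue), and bars are the mean ± SD of 4 libraries. Sema3c climbs over the 3 groups without overlap, and Sema3f is at 9.02 to 11.6 CPM in homeostasis and at most 2.90 CPM in any other library.

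Sema3c encodes a ligand for both neuropilins and plexin D1 that is known from heart outflow and vessel development. The gene lies on chromosome 5 from 17574281 to 17730268 (GRCm38). Its level was 50.9, 31.3, 54.9 and 61.4 CPM in homeostasis libraries 1 to 4. Inflammation libraries held 164, 168, 221 and 169.9 CPM. Resolution libraries held 331, 224, 425 and 354 CPM. The 3 groups did not overlap: the lowest resolution library, number 2, lay just above the highest inflammation library, number 3. The log2 fold change against homeostasis was 1.87 ± 0.20 (SE, adjusted p = 6.92e-07) in inflammation and 2.75 ± 0.21 (SE, adjusted p = 2.29e-09) in resolution. Between resolution and inflammation it was 0.88 ± 0.19 (SE, adjusted p = 0.00422), a 1.85-fold rise. All 3 calls held under each alternative tried, including the fit without resolution 2 and inflammation 3, where the last value was 1.14 (adjusted p = 0.000625). With offsets for transcript GC content and length, chosen after seeing the data, the 3 values shrank to 1.53, 2.07 and 0.54, the last with an adjusted p of 0.0421.

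Sema3a, the founding member of the class, was lower throughout, with 98 to 415 counts per library. The gene lies on chromosome 5 from 13125414 to 13602565. Homeostasis libraries held 7.97, 5.51, 5.58 and 6.43 CPM. Inflammation libraries held 14.0, 14.7, 20.3 and 14.6 CPM. Resolution libraries held 9.95, 7.24, 13.3 and 11.9 CPM. Every inflammation library lay above every library of the other groups, while resolution 2 fell within the homeostasis range. The rise in inflammation was 2.50-fold, a log2 fold change of 1.32 ± 0.20 (SE, adjusted p = 3.98e-05), and this call held under all 22 alternatives, with 0.86 as the lowest value (GC and length offsets). In resolution Sema3a was 1.67-fold above homeostasis, at 0.74 ± 0.20 (SE, adjusted p = 0.00425), but with GC and length offsets this turned to -0.10 (adjusted p = 0.553). Against inflammation it was lower in resolution by a log2 value of -0.58 ± 0.19 (SE, adjusted p = 0.047). That last call was lost without homeostasis 3, without any 1 of the inflammation libraries or without resolution 1, 2 or 4 (adjusted p 0.0518 to 0.16), and without resolution 2 and inflammation 3 together it was -0.30 (adjusted p = 0.254), whereas the GC and length offsets enlarged it to -0.97 (adjusted p = 5.64e-05).

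Sema3e encodes the plexin D1 ligand that repels growing vessels in the embryo, from chromosome 5, 14025276 to 14256689. It stood at 13.7, 17.9, 12.0 and 8.65 CPM in homeostasis. In inflammation it stood at 22.9, 23.6, 29.6 and 31.7 CPM. In resolution it stood at 15.8, 15.7, 23.4 and 21.6 CPM. All inflammation libraries exceeded all homeostasis libraries, and the resolution libraries overlapped both groups. The log2 fold change in inflammation was 1.04 ± 0.20 (SE, adjusted p = 5e-04), and the call held under all 22 alternatives, at 0.65 with GC and length offsets. In resolution it was 0.55 ± 0.20 (SE, adjusted p = 0.0283). This weaker call was lost without homeostasis 3 or 4 or without resolution 3 or 4 (adjusted p 0.0702 to 0.103), with homeostasis 1 and 2 as the sole controls (adjusted p = 0.314) and in a fit that blocked on replicate number (0.54, adjusted p = 0.0537), and it turned to -0.22 (adjusted p = 0.246) with GC and length offsets. Resolution against inflammation gave -0.49 ± 0.20 (SE, adjusted p = 0.0971), which did not pass, while with those offsets it was -0.87 (adjusted p = 0.000679).

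Sema3f (chromosome 9, 107681500 to 107710475), the neuropilin 2 ligand that repels axons and vessels, showed the largest fall among the 10 genes. Homeostasis libraries held 11.5, 9.02, 9.34 and 11.6 CPM. Inflammation libraries held 1.87, 1.68, 1.91 and 2.25 CPM, from 39 to 51 counts each. Resolution libraries held 2.01, 2.90, 1.59 and 1.06 CPM, from 23 to 62 counts each. No library of either doxycycline group came near the homeostasis range. The log2 fold change was -2.42 ± 0.24 (SE, adjusted p = 2.33e-07) in inflammation, a 5.35-fold lower level, and -2.45 ± 0.24 (SE, adjusted p = 1.04e-07) in resolution. Both calls held under all 22 alternatives. The difference between resolution and inflammation was -0.03, with a 95% interval from -0.57 to 0.50 (adjusted p = 0.945). Col2a1 and the summed chondrocyte markers were low in the same 8 libraries, and their part in this fall was not tested.

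Sema3b lies near Sema3f on chromosome 9, from 107597674 to 107609229, and encodes a related ligand. It stood at 24.3, 27.6, 30.2 and 36.3 CPM in homeostasis. In inflammation it stood at 23.5, 18.6, 16.9 and 23.0 CPM. In resolution it stood at 15.8, 21.8, 14.9 and 12.1 CPM. Homeostasis was above both other groups with no overlap, although homeostasis 1 and inflammation 1 differed by less than 1 CPM. The log2 fold change was -0.53 ± 0.18 (SE, adjusted p = 0.0275) in inflammation and -0.87 ± 0.18 (SE, adjusted p = 0.000519) in resolution, a 1.83-fold lower level. The call in resolution held under all 22 alternatives, at -0.55 with GC and length offsets. That in inflammation was lost without homeostasis 3 or 4 or inflammation 2 or 3 (adjusted p 0.0517 to 0.0997), with homeostasis 1 and 2 as the sole controls (-0.34, adjusted p = 0.214) and with upper-quartile scaling (-0.45, adjusted p = 0.0608). Resolution and inflammation overlapped, at -0.34 (adjusted p = 0.199), and without resolution 2 the value was -0.52 (adjusted p = 0.0317).

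Sema3d (chromosome 5, 12383385 to 12588948), a ligand with roles in heart and vein development, was the lowest of the 10 per length in homeostasis and inflammation, with 30 to 99 counts per library. Homeostasis libraries held 2.59, 1.94, 1.77 and 1.86 CPM. Inflammation libraries held 1.92, 2.13, 2.06 and 1.37 CPM. Resolution libraries held 3.61, 1.40, 4.45 and 4.58 CPM. Libraries 1, 3 and 4 of resolution were above every library of the other groups, and resolution 2 was the second lowest of all 12. The log2 fold change in resolution was 0.78 ± 0.30 (SE, adjusted p = 0.0342) against homeostasis and 0.91 ± 0.30 (SE, adjusted p = 0.0466) against inflammation. Without resolution 2 these were 1.05 (adjusted p = 0.00115) and 1.17 (adjusted p = 0.00186). The first call was lost without homeostasis 2, 3 or 4 or resolution 1, 3 or 4 (adjusted p 0.0605 to 0.121). It did not pass against homeostasis 1 and 2 alone (0.63, adjusted p = 0.166), in a fit that blocked on replicate number (0.73, adjusted p = 0.0658) and with only the 2 groups compared (0.79, adjusted p = 0.053). The second was lost without homeostasis 1 or 3, any 1 of the inflammation libraries or resolution 1, 3 or 4 (adjusted p 0.0506 to 0.181), in the blocked fit (0.85, adjusted p = 0.0915) and with upper-quartile scaling (0.85, adjusted p = 0.0581). With GC and length offsets they became -0.14 (adjusted p = 0.65) and 0.49 (adjusted p = 0.204). Sema3g, the class 3 ligand that is not among the 10 genes, stood at 0.646 to 2.76 CPM in homeostasis, 0.265 to 1.15 in inflammation and 0.726 to 1.29 in resolution. These ranges overlapped, and its log2 fold change in inflammation was -1.23 ± 0.46 (SE, adjusted p = 0.0415).

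Per length of exon, the mix of ligand transcripts changed from a pair to a single leading gene. In homeostasis Sema3c made up 39.8% ± 6.31 (SD, n = 4) of the summed ligand level and Sema3b 36.0% ± 4.17, followed by Sema3f at 11.6% ± 1.28. In inflammation the shares were 73.7% ± 3.18, 12.7% ± 2.85 and 1.09% ± 0.155 (SD, n = 4). In resolution Sema3c made up 86.4% ± 3.83, Sema3b 6.79% ± 3.37 and Sema3f 0.746% ± 0.482 (SD, n = 4). The share of Sema3c ran from 30.4% to 43.4% over the homeostasis libraries, below the 70.6% that was the lowest of the other 8. The summed ligand level per kilobase (kb) was 17.2 ± 2.31, 34.2 ± 3.79 and 53.7 ± 11.5 CPM (SD, n = 4), with resolution 2 the lowest of its group at 38.9 CPM per kb, below inflammation 3 at 39.7. Shares within a library do not depend on its scaling factor, but a rise of 1 ligand lowers the shares of all the others. Sema3e shows this, with shares of 8.52% ± 3.64, 8.49% ± 1.12 and 3.87% ± 0.499 (SD, n = 4) beside a level that was highest in inflammation.

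**Figure D2:**
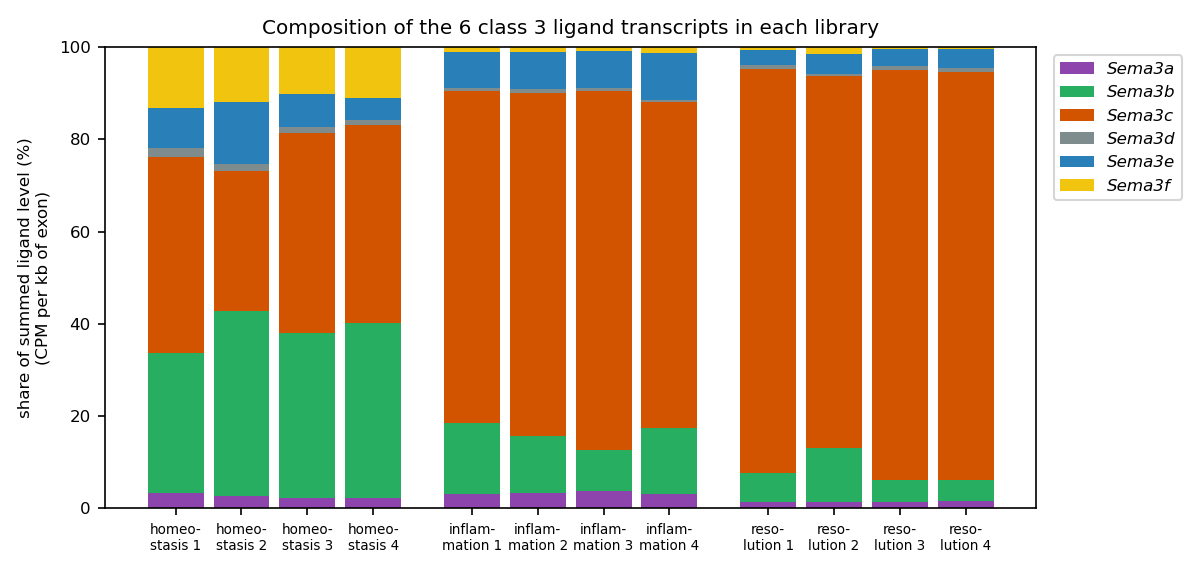
Share of each of the 6 ligand genes in the summed ligand level (%, from CPM per kb of exon), with 1 stacked bar for each of the 12 libraries. Sema3c (orange) fills 30.4% to 43.4% of the homeostasis bars, 70.6% to 77.9% of the inflammation bars and 80.8% to 88.9% of the resolution bars.

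Start-site sequence is shown for Sema3a and Sema3e, which rose together in inflammation, and for Plxnd1, the receptor of Sema3E, which did not. RefSeq (GRCm38.p6) gave a window for 7 of the 10 genes, and each line holds the 250 bases before the start site, 5′ to 3′ on the gene's strand, with CG dinucleotides in capitals. The Sema3a window, chr5:13396534-13396783 on the plus strand, lies inside the longer Sema3a gene of the GENCODE M21 annotation and overlaps none of its exons.
Sema3a: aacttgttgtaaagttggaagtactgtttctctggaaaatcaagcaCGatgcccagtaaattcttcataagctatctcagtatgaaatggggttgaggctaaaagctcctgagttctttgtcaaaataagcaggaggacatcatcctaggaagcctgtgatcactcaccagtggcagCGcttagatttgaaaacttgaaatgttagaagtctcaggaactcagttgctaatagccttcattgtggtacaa
Sema3e: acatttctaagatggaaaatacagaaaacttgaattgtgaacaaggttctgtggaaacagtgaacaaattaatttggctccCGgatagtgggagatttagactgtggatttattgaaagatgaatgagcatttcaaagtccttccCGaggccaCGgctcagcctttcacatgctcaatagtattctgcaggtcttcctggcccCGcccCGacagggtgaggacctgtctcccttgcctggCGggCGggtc
Plxnd1: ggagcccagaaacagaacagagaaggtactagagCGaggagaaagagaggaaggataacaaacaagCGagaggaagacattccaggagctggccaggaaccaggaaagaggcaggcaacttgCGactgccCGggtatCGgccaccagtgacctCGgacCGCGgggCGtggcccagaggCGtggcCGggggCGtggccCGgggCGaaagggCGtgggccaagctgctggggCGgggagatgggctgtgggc
The Sema3e window is chr5:14025026-14025275 on the plus strand and the Plxnd1 window chr6:115995006-115995255 on the minus strand. GC content was 40.8% with 2 CG dinucleotides for Sema3a, 48.0% with 7 for Sema3e and 64.8% with 16 for Plxnd1, where the median of all 32851 windows was 52.4% with 6. Among the 7 windows, that of Sema3c lies wholly within an annotated exon (250 bases) and that of Nrp2 shares 32 bases with an exon. The others overlap no exon. Searched on both strands, the AP-1 site TGACTCA, the interferon-stimulated response element, the NF-kB motif and the TATA box TATAAA were found in none of the 7 windows. Of all windows, 4.46%, 2.98%, 3.9% and 12.37% held them, so that a lack of matches in 7 short windows says only that these letters are not there.

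In homeostasis all 4 receptors had a higher mean level per length than any ligand. The order was Plxna1 (43.0 ± 4.13 CPM per kb, SD, n = 4), Plxnd1 (23.1 ± 3.41), Nrp2 (22.0 ± 1.14), Nrp1 (10.2 ± 1.96), Sema3c (6.95 ± 1.81), Sema3b (6.19 ± 1.06), Sema3f (1.99 ± 0.260), Sema3e (1.41 ± 0.414), Sema3a (0.460 ± 0.0825) and Sema3d (0.237 ± 0.0435). Among neighbours in that order, the libraries of Plxnd1 and Nrp2, of Nrp1 and Sema3c, of Sema3c and Sema3b, and of Sema3f and Sema3e overlapped. The order depends on the length used, which here joins all annotated exons of a gene. That length was 9785 bases for Nrp1, 11842 for Nrp2 and 7301 for Plxnd1, where the longest transcript has 3645, 6723 and 6907. In resolution Sema3c led at 46.7 ± 11.6 CPM per kb (SD, n = 4), overlapping Plxna1 at 42.2 ± 10.5, and Sema3f was last at 0.364 ± 0.149, overlapping Sema3d at 0.408 ± 0.171.

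Nrp1 (chromosome 8, 128358604 to 128503363), the neuropilin of Sema3A and of VEGF, stood at 125, 103, 88.0 and 82.7 CPM in homeostasis. In inflammation it stood at 103, 106, 128 and 134 CPM. In resolution it stood at 122, 99.4, 154 and 149 CPM. All 3 ranges overlapped. Nrp1 shares 80 exon bases with the microRNA gene Mir1903 on its own strand. The difference in resolution, 0.39 ± 0.16 on the log2 scale (SE, adjusted p = 0.0441), was the smallest difference called among the 10 genes. It was lost under 12 alternatives, among them leaving out homeostasis 2, 3 or 4, inflammation 2 or 3 or resolution 1, 3 or 4 (adjusted p 0.0507 to 0.141), and with GC and length offsets it turned to -0.22 (adjusted p = 0.102). In inflammation the value was 0.24 (adjusted p = 0.254), and with homeostasis 3 and 4 as the sole controls it passed at 0.49 (adjusted p = 0.0359).

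Nrp2 (chromosome 1, 62703285 to 62818695), the neuropilin of Sema3F, stood at 258, 257, 279 and 247 CPM in homeostasis, at 200.4, 244, 293 and 420.3 CPM in inflammation and at 250.4, 285, 356 and 312 CPM in resolution. The inflammation libraries spread over the whole range of the other groups. Log2 fold changes were 0.15 (adjusted p = 0.525) and 0.21 (adjusted p = 0.332) against homeostasis, with 95% intervals from -0.21 to 0.52 and from -0.16 to 0.58, and with GC and length offsets the second passed at 0.31 (adjusted p = 0.0435). Per length, the Nrp2 to Nrp1 ratio was 2.21 ± 0.416, 2.00 ± 0.415 and 1.93 ± 0.307 in homeostasis, inflammation and resolution (SD, n = 4). These ranges overlapped throughout, and the size of the ratio, unlike its change between groups, depends on the lengths used.

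Plxna1 (chromosome 6, 89316314 to 89362620), the signalling partner of the neuropilins for Sema3A, stood at 363, 352, 420.2 and 423 CPM in homeostasis. Inflammation libraries held 381, 513, 502 and 469 CPM, and resolution libraries 289, 504, 406 and 329 CPM. The groups overlapped and no comparison passed, with log2 fold changes of 0.26 (adjusted p = 0.205), -0.03 (adjusted p = 0.895) and -0.29 (adjusted p = 0.212). Without resolution 2, its highest library in that group, resolution against inflammation was -0.45 (adjusted p = 0.0259). Plxna1 shares 970 exon bases with the antisense gene Gm26811, and without the strand setting the reads of the pair cannot be told apart.

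Plxnd1 (chromosome 6, 115954811 to 115995005) stood at 155, 142, 182 and 197 CPM in homeostasis and at 139.5, 156, 142 and 143 CPM in inflammation. Resolution libraries held 76.5, 146, 99.5 and 91.3 CPM. Libraries 1, 3 and 4 of resolution were below every other library, and resolution 2 fell among the inflammation libraries. The log2 fold change in resolution was -0.71 ± 0.16 (SE, adjusted p = 0.0013) against homeostasis, a 1.63-fold lower level, and this call held under all 22 alternatives, at -0.59 with GC and length offsets. Against inflammation it was -0.49 ± 0.16 (SE, adjusted p = 0.0484). This second call was lost in the fit that blocked on replicate number (-0.51, adjusted p = 0.0577) and without homeostasis 3, any 1 of the inflammation libraries or resolution 1, 3 or 4 (adjusted p 0.0557 to 0.143), while without resolution 2 it was -0.70 (adjusted p = 0.0013). The Plxna1 to Plxnd1 ratio per length rose from 1.73 to 2.00 over the homeostasis libraries to 2.20 to 2.86 in inflammation and 2.79 to 3.29 in resolution, and its homeostasis range overlapped neither of the others.

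**Figure D3:**
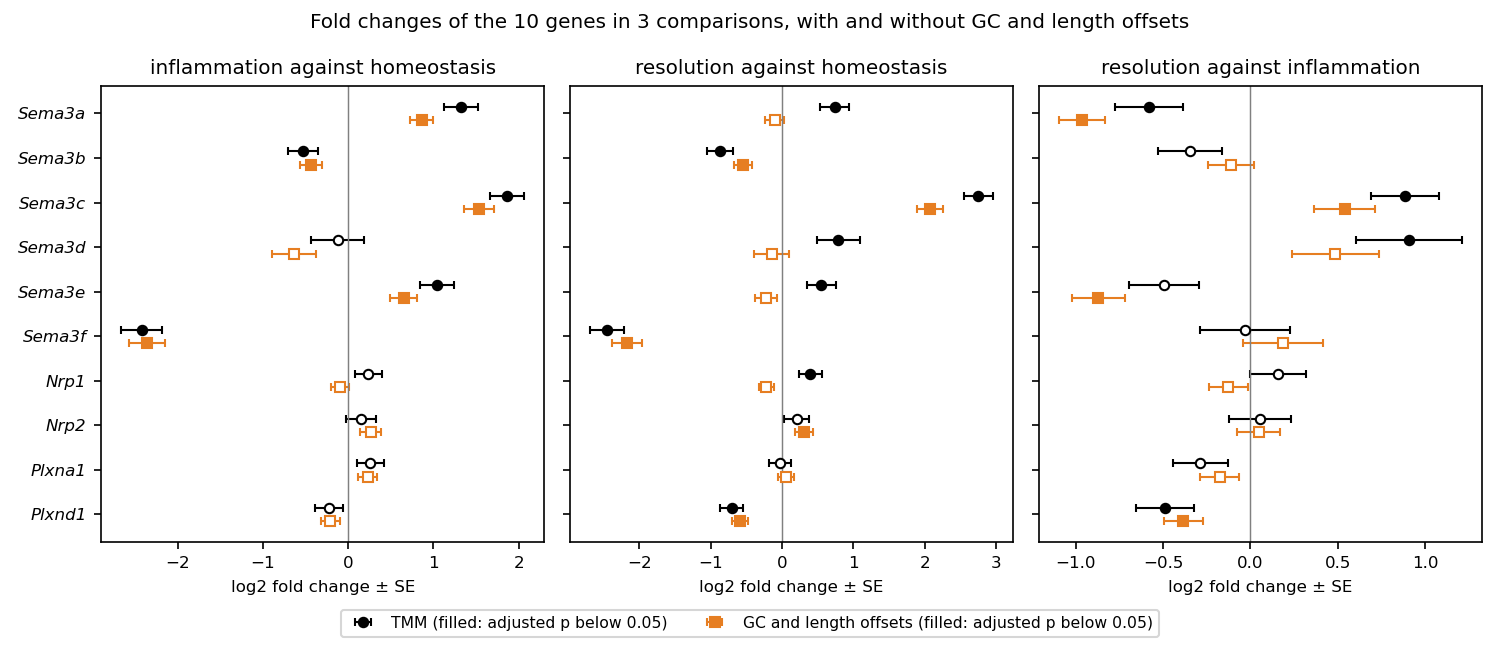
Log2 fold change ± SE (x axis) of the 10 genes in the 3 comparisons, with TMM scaling (black circles) and with added GC and length offsets (orange squares), filled where the adjusted p was below 0.05. Sema3c and Sema3f keep their direction and call against homeostasis under both, while Sema3a, Sema3d, Sema3e and Nrp1 in resolution against homeostasis move from above 0 to below 0.

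Groups whose libraries do not overlap at all are a simpler reading of the same data. In inflammation against homeostasis the 5 called genes, Sema3a, Sema3b, Sema3c, Sema3e and Sema3f, were also the 5 without overlap, beside 35.4% of all genes. In resolution against homeostasis only Sema3b, Sema3c and Sema3f of the 8 called genes had no overlap, beside 43.5% of all genes. Between resolution and inflammation Sema3a and Sema3c had none, beside 18.9% of all genes. The offsets for GC content and length moved the count in resolution against homeostasis from 8 to 5, with 2 higher and 3 lower, and the split between resolution and inflammation to 1 higher and 3 lower. Upper-quartile scaling gave 3 higher and 1 lower in inflammation against homeostasis and 1 higher and 2 lower between resolution and inflammation. Blocking on replicate number over all 12 libraries, the count between resolution and inflammation fell from 4 to 2, which were Sema3a and Sema3c.

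Within the groups, deviations from library to library were also set beside the base composition of the transcripts. Transcripts of Sema3d, Sema3a, Nrp1, Sema3e and Sema3c have 39.16% to 42.65% GC, those of Sema3b, Plxna1, Sema3f and Plxnd1 have 56.54% to 60.76%, and that of Nrp2 has 51.08%. In resolution 2 all 5 genes of low GC content were below their group mean, by log2 deviations of -1.14 to -0.26, and all 4 of high GC content were above it, by 0.43 to 0.68. Over these 9 genes, the median deviations of the low and high GC sets had opposite signs in 8 of the 12 libraries and were both below 0 in homeostasis 2 (-0.05 and -0.16), inflammation 1 (-0.17 and -0.04), inflammation 2 (-0.10 and -0.01) and resolution 1 (-0.06 and -0.19). Over the 12 libraries, whose depth and composition all genes share, the deviations of a low and a high GC gene correlated negatively in 20 of 20 pairs (median Pearson r -0.44, range -0.82 to -0.02). They correlated positively in 9 of 10 pairs within the low and 6 of 6 within the high set. These pairs come from only 9 genes, and resolution 2, with its wide deviations, enters each of them. The counts were not repeated without that library or taken over other genes of these GC ranges. Among all 1479 tested genes with the GC range of the low set, the median log2 fold change was 0.41 in inflammation and 0.79 in resolution against homeostasis. For the 1693 with the range of the high set these medians were -0.06 and -0.28. Beside 0.79 in resolution stood Sema3a (0.74 ± 0.20, SE), Sema3d (0.78 ± 0.30), Sema3e (0.55 ± 0.20), Nrp1 (0.39 ± 0.16) and Sema3c (2.75 ± 0.21). Beside 0.41 in inflammation these 5 stood at 1.32, -0.12, 1.04, 0.24 and 1.87. Of the high set, Sema3b, Plxna1, Sema3f and Plxnd1 stood at -0.53, 0.26, -2.42 and -0.22 in inflammation. In resolution they stood at -0.87, -0.03, -2.45 and -0.71. The part of base composition in these values was not tested.

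**Figure D4:**
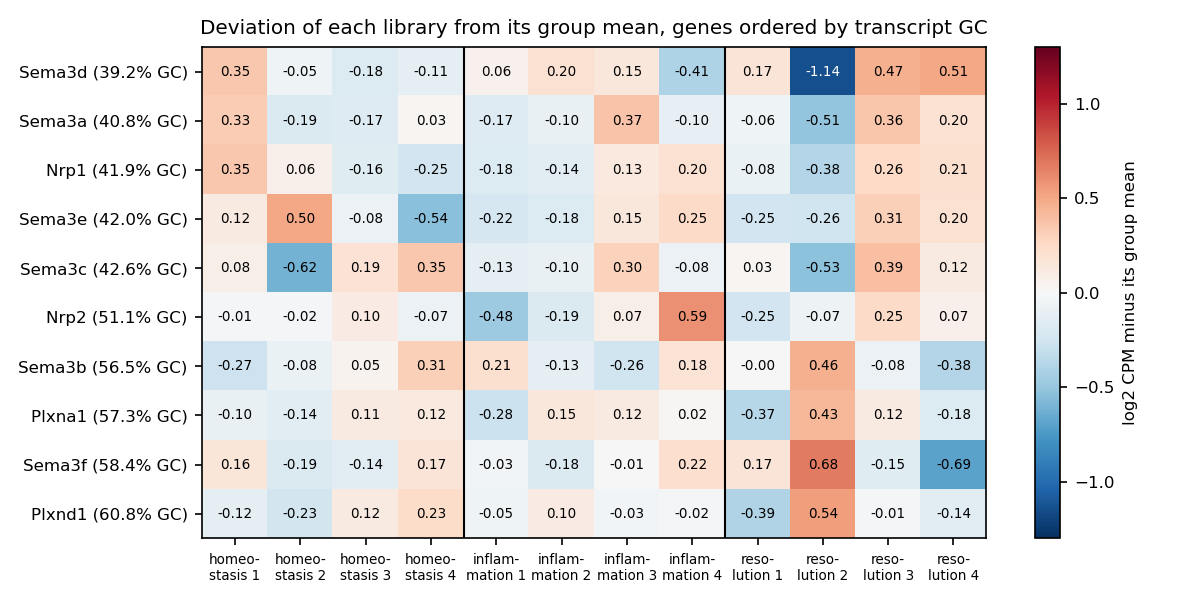
Deviation of the log2 level of each of the 10 genes (rows, ordered by transcript GC content) from its group mean in each of the 12 libraries (columns), red above and blue below the mean. In resolution 2 the 5 upper rows are negative and the 4 lowest rows are positive.

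Other genes of the pathway were given as fixed lists and read against the same shares of called genes. Of the 13 other semaphorins tested, 2 rose and 4 fell in inflammation and 1 rose and 7 fell in resolution, both against homeostasis. Of all genes, 19.0% rose and 18.3% fell in inflammation, and 27.5% rose and 25.8% fell in resolution. Sema4f fell from 9.52 to 3.62 and 2.51 CPM (log2 fold changes -1.39 and -1.91, adjusted p 0.000287 and 6.14e-06). Sema4g, a membrane semaphorin, rose from 5.94 to 12.0 and 13.6 CPM (1.02 and 1.20, adjusted p 0.00124 and 0.000143), and Sema6c rose in inflammation from 5.62 to 9.60 CPM (0.78, adjusted p = 0.00814). Sema4d, a ligand of plexin B1 that leucocytes also carry, had 1.81 CPM in homeostasis against 3.15 in inflammation and 0.209 in resolution. It fell in resolution against both groups (log2 fold changes -3.05 and -3.86, adjusted p 6.41e-05 and 2.27e-05). Sema4a was lower in resolution than in inflammation, at 0.650 and 2.47 CPM (-1.91, adjusted p = 0.00437). The summed macrophage markers had the same order of groups as Sema4d and Sema4a, and their part in these values was not tested.

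Of 7 other plexins, 1 fell in inflammation and 2 fell in resolution against homeostasis, beside 18.3% and 25.8% of all genes. None rose, beside 19.0% and 27.5% of all genes. Plxnb3 went from 7.31 to 2.46 and 3.02 CPM (log2 fold changes -1.56 and -1.26, adjusted p 0.000105 and 0.000355). Plxnb2, the most abundant of those named at 1001 CPM in homeostasis, fell to 765 CPM in resolution (-0.39, adjusted p = 0.02). Plxna3, a partner of neuropilin 2, was lower in resolution than in inflammation (12.8 and 19.5 CPM, -0.60, adjusted p = 0.037).

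Among 12 co-receptors, 1 rose and 4 fell in inflammation (19.0% and 18.3% of all genes), and 1 rose and 5 fell in resolution (27.5% and 25.8%). L1cam, which joins neuropilin 1 in the Sema3A receptor, fell from 15.7 to 5.35 and 6.00 CPM (log2 fold changes -1.55 and -1.39, adjusted p 4.93e-06 and 7.71e-06), and its adhesion partner Cntn2 fell from 6.51 to 2.27 CPM in inflammation (-1.52, adjusted p = 1.26e-05). The L1 relative Nrcam, which pairs with neuropilin 2, fell from 27.8 to 17.7 CPM in inflammation (-0.65, adjusted p = 0.00859). Erbb2 fell from 73.7 to 42.3 CPM in resolution (-0.80, adjusted p = 0.000174). Kdr, the VEGF receptor of endothelial cells, fell from 4.08 to 1.25 CPM in resolution (-1.71, adjusted p = 0.000435), and it is also among the endothelial markers, of which 3 of 7 tested fell and 2 rose there. Between resolution and inflammation 1 co-receptor was higher and 2 were lower, beside 8.52% and 7.64% of all genes. Ptk7 was lower in resolution than in inflammation (185 and 270.2 CPM, -0.54, adjusted p = 0.0158), as was Erbb2 (-0.46, adjusted p = 0.041). Cntn2 was higher in resolution than in inflammation (3.82 and 2.27 CPM, 0.75, adjusted p = 0.0213).

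Of 19 intracellular signalling genes tested, 1 rose and 5 fell in inflammation (19.0% and 18.3% of all genes). In resolution against homeostasis 7 fell and none rose (25.8% and 27.5% of all genes). None was called between resolution and inflammation (16.2% of all genes). Rnd1, a small GTPase that binds plexins, fell from 179 to 89.1 and 84.5 CPM (2.01-fold and 2.11-fold lower, adjusted p 2e-04 and 4.57e-05). The kinase Pak1 fell from 77.7 to 49.3 CPM (-0.66, adjusted p = 0.00175) and the exchange factor Farp1 from 214 to 157 CPM (-0.45, adjusted p = 0.00452) in inflammation. Mical1, an oxidase that takes actin filaments apart downstream of plexins, fell from 75.8 to 40.3 CPM in resolution (-0.91, adjusted p = 4.73e-05), as did the cofilin kinase Limk1, from 56.4 to 30.9 CPM (-0.87, adjusted p = 8.19e-05).

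Of 5 VEGF ligands, 1 fell and none rose in resolution against homeostasis (25.8% and 27.5% of all genes). It was Vegfa, at 137 CPM in homeostasis and 107 CPM in resolution (log2 fold change -0.37, adjusted p = 0.03). None was called in inflammation against homeostasis or between resolution and inflammation (37.2% and 16.2% of all genes). Semaphorins of class 3 are cut by proteases of the furin type, which changes their potency. Of 5 processing enzymes, 4 of the furin type and Adamts1, 1 rose and 2 fell in inflammation (19.0% and 18.3% of all genes). In resolution 1 rose and 3 fell (27.5% and 25.8% of all genes). Pcsk5 rose from 21.7 to 62.0 CPM in inflammation and 42.0 CPM in resolution (1.51 and 0.95, adjusted p 7.41e-07 and 7.02e-05). Adamts1, which can release Sema3C from the matrix, fell from 232 to 123 and 92.7 CPM (-0.92 and -1.32, adjusted p 0.00015 and 1.29e-06), and Pcsk6 from 91.9 to 65.7 and 69.9 CPM (-0.48 and -0.40, adjusted p 0.00562 and 0.0132).

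**Figure D5:**
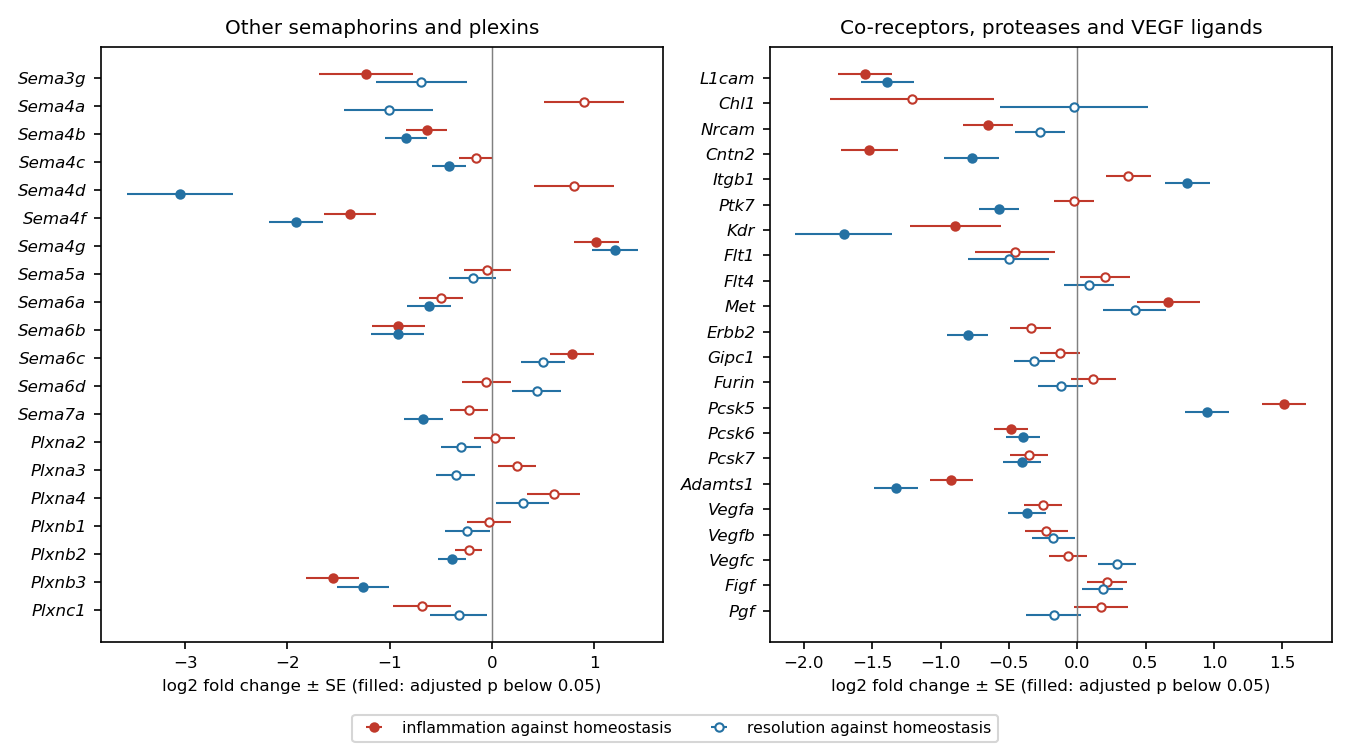
Log2 fold change ± SE of the other semaphorins and plexins (left) and of co-receptors, proteases and VEGF ligands (right) in inflammation (red) and resolution (blue) against homeostasis, filled where the adjusted p was below 0.05. Sema4d and Sema4f lie farthest to the left in resolution, and Pcsk5 farthest to the right in inflammation.

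Over the 12 libraries, the tested genes whose log2 level followed a member most closely were Sacm1l (r = 0.992) and Tiparp (r = 0.992) for Sema3c, and Hira (r = 0.986) and Arhgef2 (r = 0.978) for Sema3f. For Plxnd1 they were Rpap1 (r = 0.991) and Micall1 (r = 0.983), for Sema3a Kcnj2 (r = 0.950) and Slitrk6 (r = 0.936), and for Sema3e Vcan (r = 0.949) and Prickle1 (r = 0.944). Nrp1 was followed by Clasp2 (r = 0.976) and Fndc3b (r = 0.964), Sema3b by Rpn2 (r = 0.960), and Plxna1 by Pkd1 (r = 0.926) and Leng8 (r = 0.920). Sema3d was followed by Ikzf5 (r = 0.920) and Prpf38a (r = 0.918) and Nrp2 by Pam (r = 0.912) and Snx19 (r = 0.910). These are descriptions over libraries that share groups, depth and base composition. Tiparp stood at 10.4, 27.6 and 49.5 CPM and Sacm1l at 24.1, 56.4 and 82.9 CPM over the same 3 groups in order, the same order of groups as Sema3c.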

How the data were processed

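The series holds 12 libraries of poly(A) RNA from cultured mouse fibroblast-like synoviocytes, sequenced on a NovaSeq instrument with paired reads of 150 bases and 6 G of raw data each, per the labels' protocols. The authors deposited expected counts, which are estimated read counts without normalization, for each gene symbol in each library. GRCm38.p3 is the build named in the submitters' processing notes. Aligner, counting tool, strand setting and annotation release were not given in the sources used here. Among the deposited values, 1.43% were not whole (tolerance 0) and counts were rounded. Of 36930 entries 13 held no value, and 42 repeated entries were summed. Groups and replicate numbers come from the titles.

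Genes were kept with filterByExpr (minimum count 10) and tested with the quasi-likelihood test of edgeR 4.0.16 (R 4.3.3; robust, TMM factors) on all 12 libraries with group as the sole term, and p-values were adjusted by Benjamini-Hochberg over 15049 genes with a threshold of 0.05. The script was tested on simulated data. The biological coefficient of variation was 18.6%. Levels between genes were divided by the joined length of all exons of a gene in GENCODE M21 (GRCm38), and promoter windows come from RefSeq. Intervals are at 95%. The 10 genes, the lists and the naming rule (for every list and comparison, up to 3 called genes ranked by adjusted p, Sema3g, and the 2 genes most alike each member, 1 of which is not reported here) were chosen with earlier results of these data known. Vegfd and Adgre1 were found under Figf and Emr1. Same-numbered libraries of inflammation and resolution deviated together over all genes (r 0.126 to 0.214), while those of homeostasis did not (r -0.228 to 0.0802). Any pairing by replicate number would thus hold for the first 2 groups alone. No fit paired only these: the main test left the number out, and the replicate block was fitted on all 12 libraries, homeostasis included. Nothing in the labels says what a number marks. Alternatives were RLE and upper-quartile factors, DESeq2 1.42.0, no filter, the 2 groups alone, the replicate block, each library left out, and either pair of homeostasis libraries as controls. GC and length offsets (mgcv 1.9.3, smooth trends per library over 13628 genes with an annotated transcript, 90.6%) and leaving out resolution 2 with inflammation 3 were chosen after seeing the data.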

Additional observations from a re-analysis of the deposited data

Results flagged for a closer look

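Inflammation 3 held 20.3 CPM of Sema3a where the next highest library of its group held 14.7, a gap of 0.887 of the whole range, and 221 CPM of Sema3c where the next held 169.9, a gap of 0.900. Both gaps exceed the 95% critical value of Dixon's test for 4 samples. In all 33 sets of 4 libraries were examined, and chance marks about 1 in 20 of independent sets, a rate that 2 flags are near. These sets are not independent: both flags fall on inflammation 3, in 2 genes whose deviations correlated over the 12 libraries (r = 0.75). Whether that library was shifted as a whole was not tested. Without inflammation 3 and resolution 2 the rises in inflammation were 1.18 for Sema3a (adjusted p = 6.81e-05) and 1.76 for Sema3c (adjusted p = 1.2e-06) on the log2 scale.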

How the results depend on the processing

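Of the 17 results called for the 10 genes, 9 kept direction and call under every alternative (22 against homeostasis, 20 between resolution and inflammation): Sema3c in all 3 comparisons, Sema3f in both against homeostasis, Sema3a and Sema3e in inflammation, and Sema3b and Plxnd1 in resolution against homeostasis. Another 4 reversed with GC and length offsets, all in resolution against homeostasis: Sema3a (-0.10), Sema3d (-0.14), Sema3e (-0.22) and Nrp1 (-0.22). The cause was not tested. Of the 13 not called, 5 passed under some alternative. Reversed values among those not called were, with the same offsets, Nrp1 in inflammation (-0.0932), Plxna1 in resolution against homeostasis (0.0531), and Sema3f (0.18) and Nrp1 (-0.13) between resolution and inflammation. With homeostasis 1 and 2 as the sole controls Plxna1 in resolution was 0.0852, and with 3 and 4 Sema3d in inflammation was 0.0660. Leaving out 1 library at a time gave ranges that crossed 0 for Sema3d (-0.183 to 0.0253) and Nrp2 (-0.0704 to 0.311) in inflammation, Plxna1 in resolution against homeostasis (-0.192 to 0.0946), and Sema3f (-0.32 to 0.15) and Nrp2 (-0.10 to 0.28) between resolution and inflammation. The number of the 10 genes called ran from 4 to 5 in inflammation, 5 to 8 in resolution against homeostasis and 1 to 5 between resolution and inflammation over these fits. It was 5 in resolution against homeostasis without homeostasis 3 or 4 or resolution 3 or 4, and between resolution and inflammation it was 1 without homeostasis 3, any 1 of the inflammation libraries or resolution 1 or 4, and 2 without resolution 3. The number of all genes between resolution and inflammation ran from 1242 (without resolution 4) to 4191 (without resolution 2), with 1299 without resolution 3, 1584 without resolution 1, 1443 without inflammation 1 and 1351 without inflammation 2. In resolution against homeostasis the count was 5 with GC and length offsets, 5 with the replicate block and 5 with homeostasis 1 and 2 as the sole controls. In resolution against inflammation the replicate block gave 2. Homeostasis numbers pair with no other group, and the block included those libraries. Its counts in either comparison, and the single calls lost with it above, thus say nothing of a weaker effect. Depth limits most the precision of Sema3d (30 to 99 counts per library) and, in both doxycycline groups, of Sema3f (23 to 62).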

Other observations

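Sema3a, Sema3c, Sema3d and Sema3e lie within 5346.9 kb of chromosome 5 (12383385 to 17730268, GRCm38), and the other tested genes of that span were looked up after the members' values were seen. They were Cacna2d1, Hgf and Gm28710, and all 3 rose in both comparisons against homeostasis, where 19.0% and 27.5% of all genes were called higher. A count of 3 genes is too small to be read against such shares. Hgf, the growth factor that acts on vessels and epithelia through Met, had 19.1 CPM in homeostasis against 53.4 in inflammation and 92.1 in resolution (log2 fold changes 1.48 and 2.27 against homeostasis, adjusted p 4.62e-07 and 7.62e-10). It rose between inflammation and resolution as well (0.79, adjusted p = 0.00123). Cacna2d1, a calcium channel subunit, stood at 21.5, 32.6 and 33.7 CPM, and Gm28710 at 1.87, 3.87 and 5.65 CPM. On chromosome 9 Sema3b and Sema3f span 112.8 kb (107597674 to 107710475), with Gnai2, a G protein subunit, as the other tested gene between them. Gnai2 stood at 689, 587 and 506 CPM, and its log2 fold change was -0.23 (adjusted p = 0.164) in inflammation and -0.45 (adjusted p = 0.0063) in resolution against homeostasis.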
